A study of Mus musculus with 7 samples.

Results

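The glycine receptor genes *Glra1*, *Glra2*, *Glra3* and *Glrb* and the scaffold gene *Gphn*, which encodes gephyrin, were followed in cultured mouse cortical neurons on Affymetrix expression arrays. A probe set is a group of short probes that reads 1 target sequence. The array held 9 probe sets annotated to a single gene that is 1 of these 5, of 45037 probe sets other than controls, after 1 *Glrb* probe set whose name ends in _x_at (a mark for probes that may bind several genes) was left out. Over the whole array, probe sets named 18193 genes alone, of which these are 5. Luciferase neurons (4 arrays, replicates 1 to 4) carried for 2 weeks a lentivirus that expresses a short hairpin against luciferase, a firefly gene that mice lack. Blank neurons (3 arrays, replicates 5 to 7) were not transduced. Both groups came from the cortex of C57/Bl6J embryos of day 16, were used at 16 days in vitro, and the labels name no engineered allele for either. Such a culture is a mixture of cells, so each value is a bulk level, in which fewer cells of a type and less RNA per cell cannot be told apart. The labels do not say whether replicates came from separate litters, so every p-value reflects the spread of these arrays alone, and that spread may be technical.

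The 5 genes were chosen by an earlier result on these same arrays, the rise of *Glra3* probe set 1457747_at in luciferase neurons. Their differences between the groups are therefore given as a description, with standard errors and intervals and with no p-value. Levels are RMA intensities on a linear scale (RMA corrects the background, makes the arrays alike and summarises the probes of each set). A level under 50 was treated as too low to measure, after the study's own filter. Differences are luciferase minus blank on the log2 scale. No level is read against that of another gene, because probes differ in how strongly they bind, and the probe set with the highest mean was used only to stand for a gene with several.

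Glycine receptors are chloride channels of 5 subunits that open when glycine binds. The alpha subunits, encoded by *Glra1*, *Glra2* and *Glra3*, form the glycine binding site together with the beta subunit, encoded by *Glrb*. The beta subunit also holds the receptor at synapses by binding gephyrin, a scaffold that anchors GABA-A receptors too and that also takes part in the synthesis of the molybdenum cofactor. In the rodent brain *Glra1* is typical of the adult spinal cord and brainstem, whereas *Glra2* is the main alpha subunit of the embryonic and neonatal cortex.

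The promoters of *Glra3*, *Glra2* and *Glrb* are printed as those of the receptor subunits that had a probe set above 50. Each is the stretch of 250 bases before the gene's start in RefSeq on build GRCm38.p6, 5′ to 3′ on the strand of the gene, with matches on either strand to a first group of motifs in capitals. These were the GC box, spelled GGGCGG, the CCAAT box, spelled as its name, and the TATA box, spelled TATAAA. *Glra3* lies at chr8:55940168-55940417 on the plus strand, *Glra2* at chrX:165327394-165327643 on the minus strand and *Glrb* at chr3:80913661-80913910 on the minus strand.
Glra3: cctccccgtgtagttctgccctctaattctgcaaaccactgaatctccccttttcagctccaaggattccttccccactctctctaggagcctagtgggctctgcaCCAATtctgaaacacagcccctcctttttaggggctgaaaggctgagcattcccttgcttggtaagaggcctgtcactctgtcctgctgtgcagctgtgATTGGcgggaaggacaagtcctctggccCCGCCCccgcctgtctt
Glra2: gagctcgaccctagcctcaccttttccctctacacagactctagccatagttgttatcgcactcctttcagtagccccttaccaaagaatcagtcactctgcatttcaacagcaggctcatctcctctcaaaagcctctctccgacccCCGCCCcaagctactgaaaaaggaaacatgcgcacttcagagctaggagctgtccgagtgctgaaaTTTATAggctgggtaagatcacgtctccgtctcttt
Glrb: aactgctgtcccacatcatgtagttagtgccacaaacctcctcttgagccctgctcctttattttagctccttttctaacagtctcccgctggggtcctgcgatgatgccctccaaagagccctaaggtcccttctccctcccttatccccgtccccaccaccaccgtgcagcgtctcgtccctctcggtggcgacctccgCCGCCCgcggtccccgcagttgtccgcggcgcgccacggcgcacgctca
The promoter table matched 4 of the 5 genes. *Glra1* is named only. A GC box stood in all 4 promoters, that of *Gphn* at chr12:78226405-78226654 included, and in 32.7% of 32851 promoters of the same length. In *Glra3* it began 17 bases before the start, in *Glrb* 49, in *Gphn* 90 and in *Glra2* 102, each on the strand opposite to the gene. *Glra3* held a CCAAT box on each strand (33.8% of all promoters hold at least 1), and none of the other 3 did. *Glra2* held a TATA box on the opposite strand, 36 bases before the start, as do 12.4% of all promoters on either strand. Neither the cyclic AMP response element TGACGTCA (1.55% of all promoters) nor the AP-1 element TGANTCA (6.75%) was found in the 4. The E-box CANNTG, which is not in capitals, was found in *Glra3* and *Glrb*, beginning 53 and 33 bases before the start, and in 66.2% of all promoters. None of the capitals overlap each other. The share of G and C was 56% in *Glra3*, 50.4% in *Glra2*, 62.4% in *Glrb* and 77.2% in *Gphn*, against a median of 52.4% over all promoters. These matches describe the letters of each window and were not set against binding data.

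Of the 9 probe sets, 6 reached 50 on at least 1 array (*Glra2*, *Glrb*, all 3 of *Gphn* and 1 of *Glra3*). Both *Glra1* probe sets and the other *Glra3* probe set lay under 50 on all 7 arrays. One of the 6, in *Glra3*, passed the filter only through its luciferase arrays. The plot of levels by array shows all 9 on axes of their own.

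**Figure D1:**
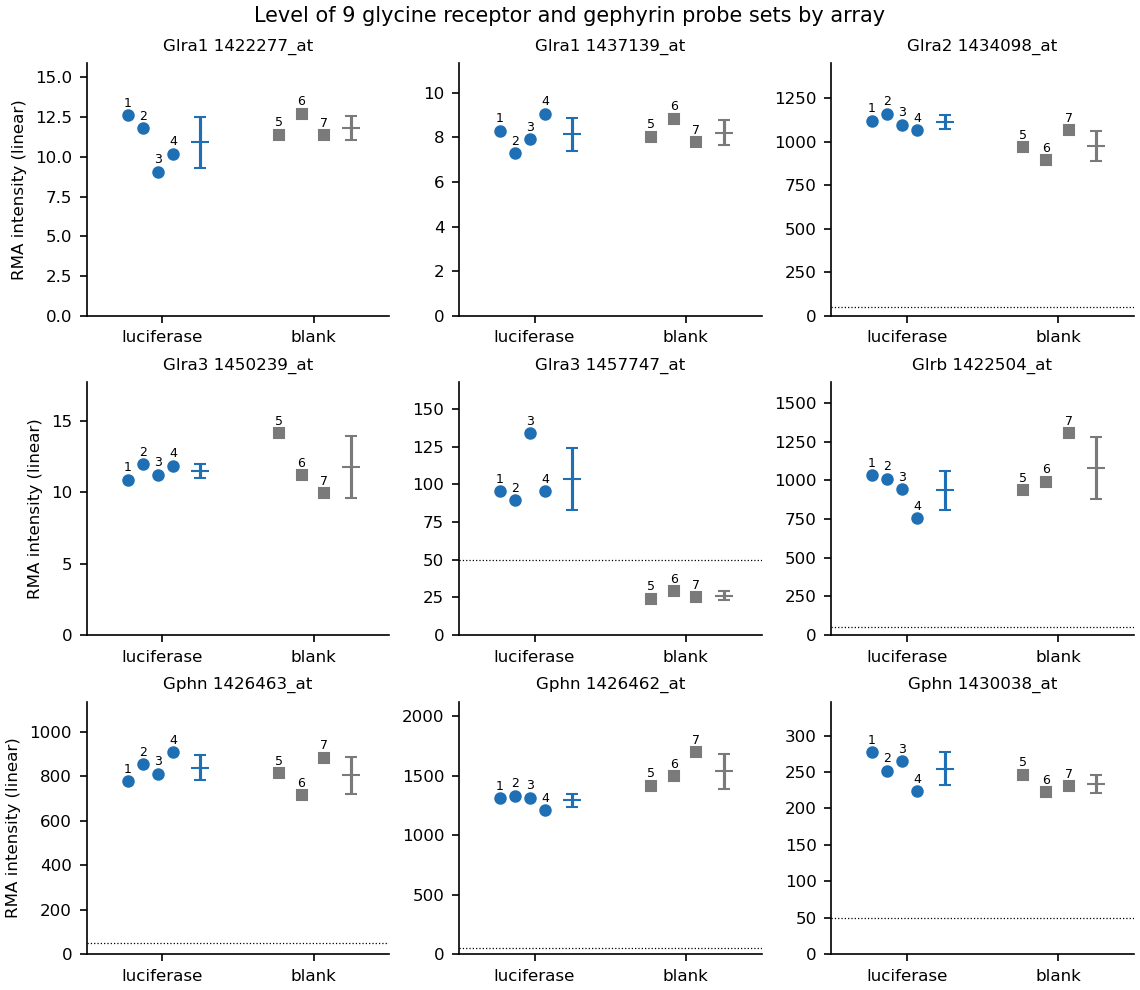
Level of each of the 9 probe sets (RMA intensity, linear axis from 0) in luciferase neurons (blue circles, replicates 1 to 4) and blank neurons (grey squares, replicates 5 to 7); bars beside the points give mean ± SD, and the dotted line marks a level of 50. Glra3 1457747_at lies between 89.55 and 134.08 on the luciferase arrays and between 24.06 and 29.3 on the blank arrays.

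*Glra3*, the alpha 3 subunit, was read by a pair of probe sets, of which 1 reached 50. Probe set 1457747_at stood at 95.45, 89.55, 134.08 and 95.66 in luciferase neurons, against 24.06, 29.3 and 24.89 in blank neurons. Every luciferase array lay above every blank array, and all 3 blank arrays lay under the level of 50, so no fold is given. The means were 103.7 ± 20.5 (SD, n = 4) in luciferase neurons, against 26.1 ± 2.82 (SD, n = 3) in blank neurons, with 1.98 (standard error 0.14) between them on the log2 scale. This value chose the genes, and it rests on blank levels too low to measure, so it does not give the size of a change. The value was 1.85 without luciferase replicate 3, the highest array, and 1.496 when 16 was added to every value before the logarithm, which shrinks the differences of low levels.

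The other *Glra3* probe set, 1450239_at, stood at 10.91, 12.01, 11.26 and 11.88 in luciferase neurons, against 14.18, 11.23 and 9.96 in blank neurons. The groups overlapped and all arrays lay far under 50. The log2 difference was -0.019 (standard error 0.12), with a 95% interval from -0.27 to 0.24. This probe set was designed on the RefSeq transcript of *Glra3*, whereas 1457747_at was designed on a single expressed sequence tag that the array annotation assigns to the same gene. Which part of the gene each probe set reads was not examined here.

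*Glra2*, the alpha 2 subunit, was measured on all arrays. Its levels were 1118.75, 1159.13, 1096.58 and 1065.38 in luciferase neurons, against 966.89, 891.99 and 1065.84 in blank neurons. The groups overlapped by a narrow margin, between luciferase replicate 4 and blank replicate 7. The means were 1109.96 ± 39.4 (SD, n = 4) in luciferase neurons, against 974.9 ± 87.2 (SD, n = 3) in blank neurons, which puts the luciferase mean at 113.9% of the blank mean. The log2 difference was 0.19 (standard error 0.081), with a 95% interval from 0.0092 to 0.37, 0.26 without blank replicate 7, 0.13 without blank replicate 6 and 0.094 when arrays were centred on their tested median.

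*Glra1*, the alpha 1 subunit, lay under 50 everywhere. Probe set 1422277_at stood at 12.62, 11.81, 9.07 and 10.19 in luciferase neurons, against 11.4, 12.71 and 11.37 in blank neurons. Probe set 1437139_at stood at 8.3, 7.28, 7.92 and 9.05 in luciferase neurons, against 8.02, 8.83 and 7.77 in blank neurons. In both the groups overlapped, and at such levels no difference could be measured. *Glra4*, a further alpha subunit and no member of the group, averaged 11.1 ± 0.848 (SD, n = 4) in luciferase neurons, against 13.2 ± 2.35 (SD, n = 3) in blank neurons, also under 50.

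*Glrb*, the beta subunit, had levels of 1032.86, 1009.96, 943.59 and 756.35 in luciferase neurons, against 937.7, 991.61 and 1305.87 in blank neurons. The groups overlapped, with luciferase replicate 4 lowest and blank replicate 7 highest. The means were 935.7 ± 125.4 (SD, n = 4) in luciferase neurons, against 1078.4 ± 198.8 (SD, n = 3) in blank neurons. The log2 difference of -0.20 (standard error 0.14) had a 95% interval from -0.51 to 0.12, and it was -0.10 without luciferase replicate 4, -0.054 without blank replicate 7 and -0.037 with limma's array weights, which gave blank replicate 7 the least weight.

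*Gphn* was read by 3 probe sets above 50, which did not move alike. Probe set 1426462_at stood at 1313.36, 1331.84, 1314.51 and 1212.5 in luciferase neurons, against 1417.04, 1497.22 and 1698.89 in blank neurons. All 4 luciferase arrays lay under the lowest blank array. The means were 1293.05 ± 54.4 (SD, n = 4) in luciferase neurons, against 1537.7 ± 145.2 (SD, n = 3) in blank neurons, a log2 difference of -0.25 (standard error 0.083, 95% interval from -0.43 to -0.060).

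Probe set 1426463_at of *Gphn* stood at 776.8, 853.99, 810.79 and 907.99 in luciferase neurons, against 812.17, 714.86 and 883.11 in blank neurons. The groups overlapped, with a log2 difference of 0.063 (standard error 0.093, 95% interval from -0.15 to 0.27), and the sign turned to -0.019 without blank replicate 6 and to -0.033 when arrays were centred on their tested median. Probe set 1430038_at stood at 277.41, 252.1, 265.31 and 223.91 in luciferase neurons, against 246.64, 222.56 and 230.63 in blank neurons. Here too the groups overlapped, with a log2 difference of 0.12 (standard error 0.089, 95% interval from -0.077 to 0.32). It was 0.081 without luciferase replicate 1, 0.033 with quantile normalization and 0.027 when arrays were centred on their tested median.

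Set against each other within an array, the *Gphn* probe sets changed unequally. The level of 1426463_at minus that of 1426462_at was higher in luciferase neurons by 0.31 on the log2 scale, and that of 1426462_at minus that of 1430038_at differed by -0.37. Neither of these ratios overlapped between the groups. For the levels of single probe sets this held for 34.8% of all tested. The share for ratios within a gene was not computed, so nothing is read from it. The ratio of 1426463_at to 1430038_at differed by -0.061 and overlapped. The array annotation names a target sequence for 1430038_at and none for 1426463_at and 1426462_at. Which transcripts of *Gphn* each probe set reads was not examined here.

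**Figure D2:**
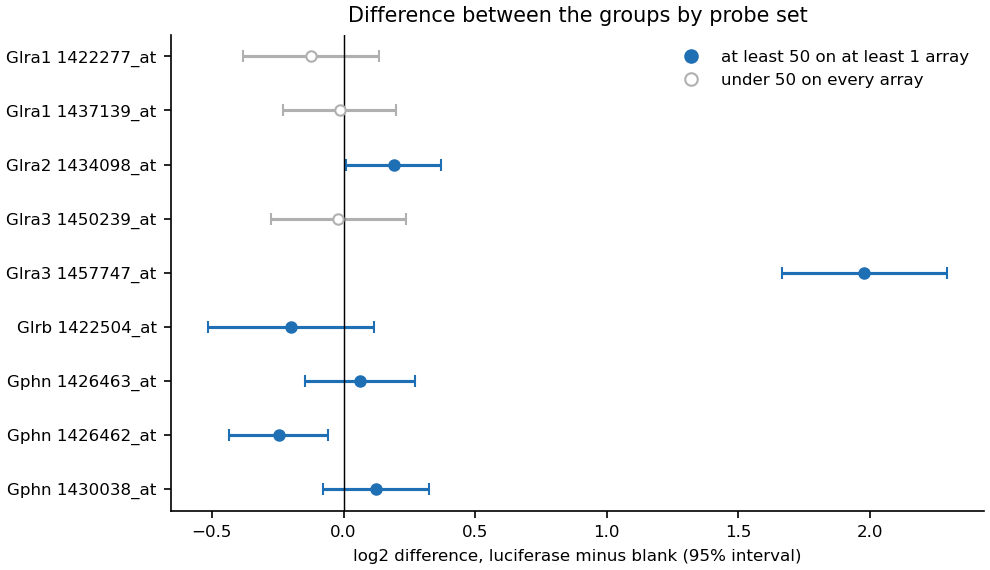
Log2 difference, luciferase minus blank, of each probe set with its 95% interval from limma (7 arrays; filled points reached 50 on at least 1 array, open points did not). Glra3 1457747_at, whose blank arrays lie under 50, stands at 1.98, and the other 8 probe sets lie between -0.25 and 0.19.

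The calling rule asked for an adjusted p of 0.05 or less (limma, Benjamini-Hochberg over all 22748 tested) and a difference of 1.5-fold or more. Of all tested probe sets 4.19% were called, and 2.9% were called higher in luciferase neurons. Higher calls were 69.15% of all calls, 58.4% with quantile normalization and 43.8% when arrays were centred on their tested median. Of the 6 member probe sets tested, 1 was called, *Glra3* 1457747_at, on whose rise the genes were selected. In 2 of the 6 the groups did not overlap (*Glra3* 1457747_at and *Gphn* 1426462_at), where this held for 34.8% of all tested probe sets. As the genes were chosen on the same contrast, nothing is read from these counts.

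The members were also compared by how each array deviated from the mean of its own group, which removes the difference between the groups. *Glrb* and *Gphn* 1426462_at deviated together (Pearson r = 0.946 over 7 arrays). Other probe sets had such values too. For deviations, an r of at least 0.95 was reached with *Glrb* by 175 of 20535 probe sets and with *Gphn* 1426462_at by 260 of 20533. In both, luciferase replicate 4 had the lowest deviation of the luciferase arrays and blank replicate 7 the highest of all. *Glra2* had an r of 0.777 with *Glrb* and 0.743 with *Gphn* 1426462_at. The deviations of *Glra3* 1457747_at, whose blank levels lay under 50, had an r between -0.46 and 0.092 with the other 5 measured probe sets. *Gphn* 1426462_at itself had an r of 0.184 and 0.208 with the other probe sets of its gene. The points share their arrays and their normalization, and these values are a description with no test.

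The genes most like each member were found by Pearson r of log2 levels over all 7 arrays, among 20535 probe sets that name 1 gene (20533 for *Gphn*). *Glra3* 1457747_at was most like *Epha3*, an ephrin receptor, with r = 0.9994, and with r = 0.988 for deviations from the group means. This *Glra3* probe set chose the genes, and its blank levels lay under 50, too low to measure. Its largest deviation was 0.39, on luciferase replicate 3. Its r values are therefore given as a description only. *Epha3* averaged 122.8 in luciferase neurons and 74.2 in blank neurons. *Syt11*, a synaptotagmin, followed with r = 0.994 and *Rabgap1l*, a Rab GTPase-activating protein, with r = 0.993, whose deviations had an r of 0.873 and 0.778. An r of at least 0.95 with *Glra3* was reached by 358 probe sets, so that the order among the first rests on small differences. For deviations, 12 of 20535 probe sets reached 0.95 with it.

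*Glra2* was most like *Osbpl9* (r = 0.994), *Hltf* (0.993) and *Zfand4* (0.992), with 275 probe sets at 0.95 or more. *Glrb* was most like *Myo19* (0.992), *Top3b* (0.985) and *Gtpbp4* (0.979), and 32 probe sets reached 0.95. *Gphn* 1426462_at, the highest *Gphn* probe set, was most like *Derl1* (0.993), *Armc8* (0.992) and *Tbpl1* (0.988), with 137 probe sets at 0.95 or more. The difference between the groups enters each r.

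Genes around the receptor were read in 7 lists, by the probe set with the highest mean for each gene. Of 85 measured genes, 16 were higher in luciferase neurons and 6 were lower at an adjusted p of at most 0.05 (limma). That is 18.8% higher and 7.06% lower, against 16.9% and 8.55% of all 12315 genes measured, and the median log2 difference was 0.075 over the listed genes and 0.058 over all genes. The shares of the listed genes were thus near those of all genes. If any tested probe set of a gene was allowed to pass, 31 genes did. Of genes named below as past the test, the other probe sets of *Slc32a1* (-0.076), *Ptbp2* (0.034), *Gabra4* (-0.17), *Gabra2* (-0.081 and 0.16) and *Nfs1* (0.24) did not pass. When arrays were centred on their median over the tested probe sets (tested-median centring), 10 were higher and 9 lower, on the median over all probe sets (all-probe-set centring) 22 and 3, and with quantile normalization 15 and 8. Without luciferase replicate 3 the counts were 12 and 2, without blank replicate 5 they were 10 and 3, and without blank replicate 6 they were 10 and 4. Of the 22 genes that passed, 9 (*Gldc*, *Shisa7*, *Nfs1*, *Wnk1*, *Gabrd*, *Gabrp*, *Chrna3*, *Chrna5* and *Rbfox1*) kept their call under each alternative setting in which they were tested.

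In the list of glycine supply, 11 genes were measured, of which 2 were higher and 2 lower, while 7 did not pass. *Gldc*, the glycine decarboxylase of the mitochondrial cleavage system, was higher, at 428.9 ± 18.9 (SD, n = 4) in luciferase neurons, against 312.0 ± 21.6 (SD, n = 3) in blank neurons (log2 difference 0.46, standard error 0.078, adjusted p = 0.0042 from limma). *Gcsh*, which encodes another protein of that system, was lower by a log2 difference of -0.24 (adjusted p = 0.039 from limma), a call lost without any 1 of luciferase replicates 1 to 4 or of blank replicates 6 and 7, with no filter on level and with all-probe-set centring. *Slc7a10*, a transporter of small neutral amino acids in astrocytes, was higher at 0.28 (adjusted p = 0.036 from limma), a call lost without any 1 of luciferase replicates 1, 3 and 4 or of the blank replicates, and with no filter on level, with trend and robust in eBayes and with tested-median centring. *Slc32a1*, the vesicular carrier of GABA and glycine, averaged 372.2 ± 3.92 (SD, n = 4) in luciferase neurons, against 443.4 ± 10.6 (SD, n = 3) in blank neurons (log2 difference -0.25, adjusted p = 0.023 from limma), and its call was lost without any 1 of luciferase replicates 1 and 3 or of blank replicates 5 and 6, with no filter on level and with all-probe-set centring. *Gldc* and *Slc7a10* are known mainly from astrocytes, whose summed markers stood at 131.7% of blank in luciferase neurons, and the part of this in the 2 differences was not tested. *Slc6a9*, the glial glycine transporter, had a log2 difference of 0.11 and did not pass (adjusted p = 0.404 from limma). *Slc6a5*, the transporter that marks glycine-releasing neurons, stood at 28.25 ± 4.03 (SD, n = 4) in luciferase neurons, against 28.5 ± 3.27 (SD, n = 3) in blank neurons, under 50 on every array.

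Of 25 measured gephyrin partners and other genes of the inhibitory postsynapse, 2 were higher and none was lower by the highest probe set. *Shisa7*, an auxiliary subunit of GABA-A receptors, was higher, at 153.9 ± 10.6 (SD, n = 4) in luciferase neurons, against 114.0 ± 6.26 (SD, n = 3) in blank neurons (log2 difference 0.43, adjusted p = 0.0067 from limma). *Nbea*, which encodes neurobeachin, a protein of receptor traffic, was higher at 0.40 (adjusted p = 0.019 from limma), a call lost without luciferase replicate 3 or blank replicate 5 and with tested-median centring. *Nlgn2*, the adhesion molecule of inhibitory synapses that binds gephyrin, did not pass on its highest probe set, with a log2 difference of 0.044 (adjusted p = 0.852 from limma), while its other tested probe set was lower at -0.37 (adjusted p = 0.0092 from limma). Another probe set also passed as lower in *Trak1* (-0.71, adjusted p = 0.0020 from limma) and in *Enah* (-0.42, adjusted p = 0.040 from limma). In *Kif5b* another probe set passed as higher (0.43, adjusted p = 0.0083 from limma). The remaining probe sets of *Trak1*, *Enah* and *Kif5b* did not pass. Of 7 measured genes of molybdenum cofactor synthesis and of the enzymes that use it, *Nfs1* (0.35, adjusted p = 0.0090 from limma), a cysteine desulfurase, and *Mocs3* (0.31, adjusted p = 0.017 from limma), which takes part in making the cofactor, were higher. The call of *Mocs3* was lost without blank replicate 5 or 6 and with tested-median centring.

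Among 14 measured genes of chloride transport, which sets the direction of current through these channels, 2 were higher and none was lower by the highest probe set. *Wnk1*, a kinase that controls chloride cotransporters, was higher at 0.44 (adjusted p = 0.010 from limma), and its other probe sets stood at 0.90 (adjusted p = 0.0070 from limma) and 0.050 (adjusted p = 0.830 from limma). *Slc12a7*, a potassium chloride cotransporter, was higher at 0.37 (adjusted p = 0.015 from limma), a call lost without blank replicate 5. *Slc12a2*, which brings chloride into neurons, and *Slc12a5*, which removes it, had log2 differences of 0.16 and 0.10 on their highest probe sets and did not pass (adjusted p = 0.144 and 0.362 from limma). Of 2 other *Slc12a2* probe sets, 1 passed at 0.63 (adjusted p = 0.014 from limma) and the other stood at 0.26 (adjusted p = 0.110 from limma). In *Wnk2* a probe set other than the highest passed as lower (-0.30, adjusted p = 0.028 from limma). Such a probe set passed as higher in *Slc4a8* (0.55, adjusted p = 0.0026 from limma) and *Clcn3* (0.23, adjusted p = 0.036 from limma).

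Of 10 measured GABA-A receptor subunits, 2 were higher and 3 were lower. *Gabrd*, the delta subunit of receptors outside synapses, averaged 209.7 ± 17.6 (SD, n = 4) in luciferase neurons, against 146.4 ± 10.07 (SD, n = 3) in blank neurons (log2 difference 0.52, adjusted p = 0.0046 from limma). *Gabrp* was lower at -0.39 (adjusted p = 0.0044 from limma), with all 4 luciferase arrays and blank replicate 5 under 50. The call of *Gabra2* (0.36) was lost without any 1 of luciferase replicates 1, 3 and 4 or of blank replicates 6 and 7, with no filter on level, quantile normalization, array weights and tested-median centring, and that of *Gabra4* (-0.32) without any 1 of luciferase replicates 2 to 4 or blank replicate 6. The call of *Gabra5* (-0.29) was lost without any 1 of luciferase replicates 1, 2 and 4 or of the blank replicates, with no filter on level and with all-probe-set centring. Of 8 measured subunits of the other Cys-loop receptors, the family to which glycine receptors belong, 4 were higher and 1 was lower. *Chrna5* stood at 56.99 ± 4.50 (SD, n = 4) in luciferase neurons, against 35.7 ± 2.35 (SD, n = 3) in blank neurons, the blank arrays all under 50 (log2 difference 0.67, adjusted p = 0.0013 from limma). *Chrna3* was higher at 0.51 (adjusted p = 0.0084 from limma). *Chrna7* (0.33) lost its call without blank replicate 6, and its other probe set stood at -0.19 and did not pass. *Chrnb2* (0.34) lost its call without any 1 of the luciferase replicates or of blank replicates 5 and 6 and with tested-median centring, and its other probe sets, at 0.023 and 0.045, did not pass. *Chrne* (-0.37), the gene that was lower, lost its call without any 1 of luciferase replicates 1, 3 and 4 or blank replicate 5.

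Of 10 factors of splicing and RNA editing, 2 were higher and none was lower by the highest probe set. *Rbfox2* did not pass on that probe set, with a log2 difference of 0.042 (adjusted p = 0.742 from limma). Its 3 other probe sets passed as lower, at -0.32, -0.35 and -0.36 (adjusted p = 0.029, 0.024 and 0.0080 from limma). *Rbfox1*, a neuronal splicing factor, averaged 2516.6 ± 19.5 (SD, n = 4) in luciferase neurons, against 1836.5 ± 114.0 (SD, n = 3) in blank neurons (log2 difference 0.46, adjusted p = 0.0030 from limma). *Ptbp2*, another splicing factor of neurons, was higher at 0.32 (adjusted p = 0.021 from limma), a call lost without luciferase replicate 1 and also without either of blank replicates 5 and 6 and with tested-median centring. *Nova1*, which controls splicing of the glycine receptor alpha 2 subunit in mouse, had a log2 difference of 0.0074 and did not pass (adjusted p = 0.959 from limma).

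**Figure D3:**
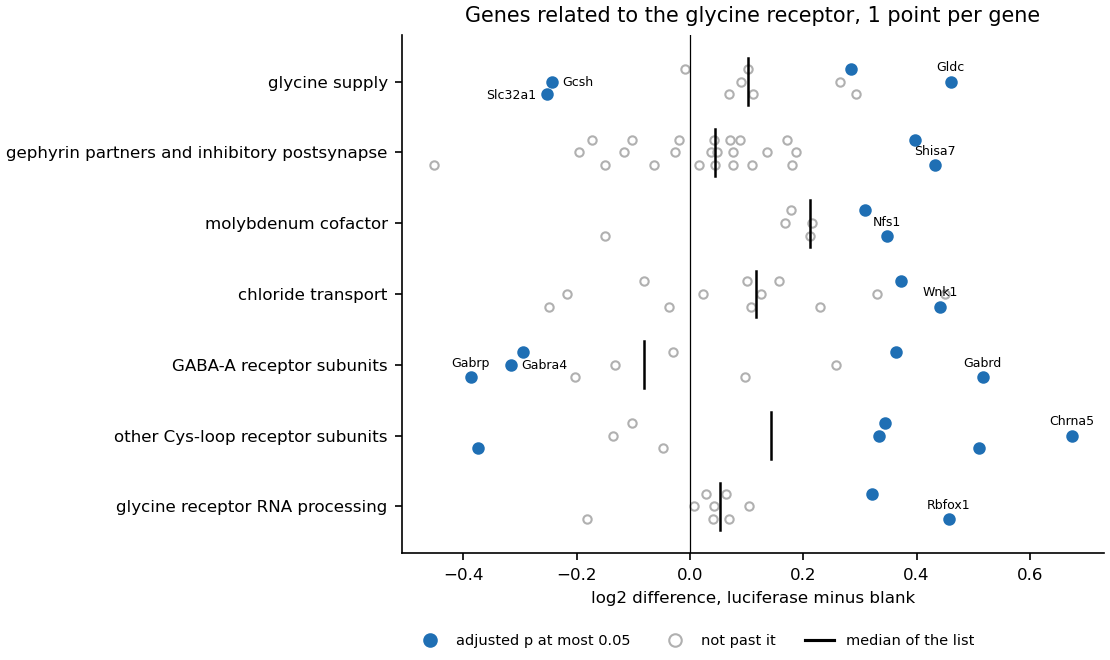
Log2 difference, luciferase minus blank, of 85 measured genes in 7 lists (1 point per gene; filled points passed an adjusted p of 0.05 in limma, open points did not; black bars are the medians of the lists). Of these genes 16 lie to the right and 6 to the left among those that passed.

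The culture was checked against markers of cell types. The markers of neurons were high on all arrays, with a summed level of 8 genes from 44076 to 45465 in luciferase neurons and from 42035 to 45002 in blank neurons. Each of the 8 was read by its highest probe set. *Dcx*, a marker of immature neurons, was lower at -0.40 (adjusted p = 0.0084 from limma) and the others did not pass. The 3 other probe sets of *Dcx* stood between -0.18 and 0.041, and none of them passed as lower. In *Map2* and in *Rbfox3*, 1 other probe set passed as higher. The 9 markers of hindbrain and spinal neurons that the array names were under 50 on all arrays, *Slc6a5* among them. The summed level of 10 astrocyte markers ran from 24663 to 26976 in luciferase neurons and from 18296 to 20366 in blank neurons, and 6 of the 10 were higher and none lower (limma), with *Gfap* at a log2 difference of 1.19 and *Aldh1l1* at 0.86. Of 6 striatal markers 3 were higher and none was lower, with sums from 1519 to 1628 in luciferase neurons and from 1278 to 1395 in blank neurons. Of 4 measured vascular and meningeal markers, *Dcn*, at 421.5 ± 83.7 (SD, n = 4) in luciferase neurons, against 834.7 ± 93.5 (SD, n = 3) in blank neurons, and *Col1a2* were lower and *Pdgfrb* was higher. The sums ran from 524 to 712 in luciferase neurons and from 933 to 1088 in blank neurons, and *Dcn* made up most of each. *Kdr* did not pass, and *Col1a2* lay under 50 on all 4 luciferase arrays. *Pdgfrb* stood at 37.99, 47.81 and 62.05 in blank neurons, in part under 50, and its other probe set, at 0.19, did not pass. The other 4 listed markers (*Pecam1*, *Cldn5*, *Vwf* and *Col1a1*) lay under 50 on all arrays. Of 6 measured markers of the oligodendrocyte lineage 1 was higher and 1 lower. Of 8 microglial markers 6 were under 50 on all arrays, and the other 2 did not pass. Of 10 markers of GABA neurons, 1 was higher and 1 lower, and of 7 markers of excitatory cortical neurons 3 were higher and 1 lower. Among the marker calls, those of *S100b*, *Gja1*, *Drd2*, *Tac1*, *Col1a2*, *Mbp*, *Mag*, *Slc32a1*, *Slc17a7* and *Camk2a* were lost under some alternative setting. The other marker calls were kept under each setting in which they were tested. The call was lost in 9 of 16 settings for *S100b*, 9 of 15 for *Mag* and 8 of 16 for *Slc17a7*. *Mag* lay under 50 on all 4 luciferase arrays. The part of the markers in the difference of *Glra3* or of the other members was not tested.

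**Figure D4:**
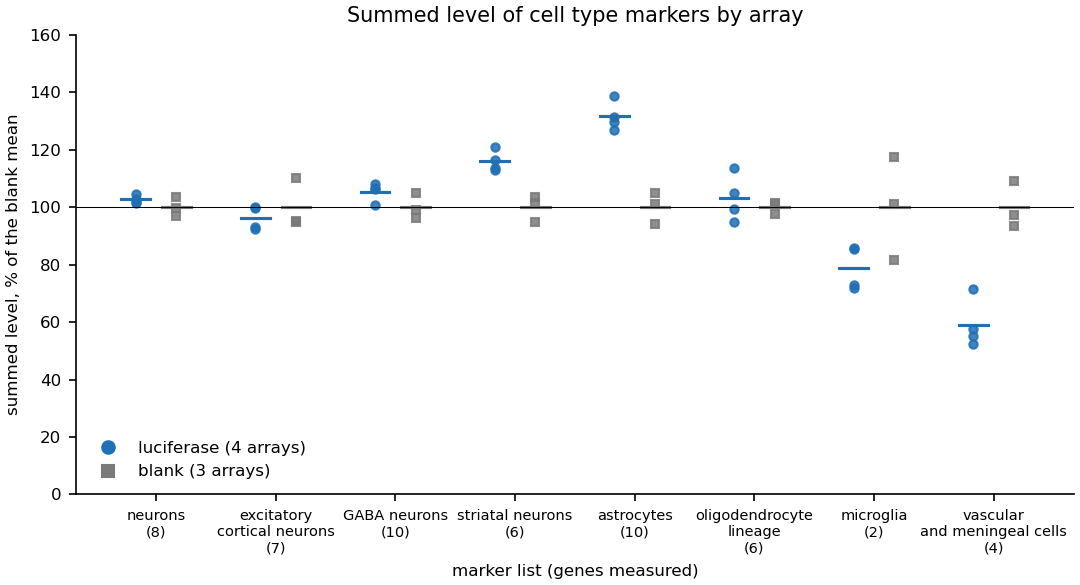
Summed level of the measured markers of each cell type by array, as a percentage of the blank mean (axis from 0; blue circles, 4 luciferase arrays; grey squares, 3 blank arrays; short lines are group means; the number of genes stands under each name). The astrocyte sum averages 131.7% of blank in luciferase neurons and the vascular and meningeal sum 59.1%. Most of the vascular and meningeal sum is 1 gene, Dcn, which averages 834.7 of 997.2 in blank neurons and 421.5 of 589.7 in luciferase neurons.

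Over all tested probe sets, pairs of arrays within the luciferase group had an r from 0.9928 to 0.9958 and pairs within the blank group from 0.9885 to 0.9954, while pairs across the groups lay between 0.9774 and 0.9852. Blank replicate 7 had the lowest weight of the 7 arrays in limma's array weights (0.27), and it was the highest blank array in *Glra2*, *Glrb*, *Gphn* 1426462_at and *Gphn* 1426463_at.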

How the data were processed

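Total RNA of 7 samples was hybridised to 1 array each. The authors normalized the arrays with RMA (version: not given in the sources used here). The authors deposited intensity values on a linear scale. The table held 45101 probe sets and 0 columns of other samples. Its blank columns sat 1 row low, and each was moved up by 1. The log2 group means then had r = 0.995, against at most 0.421 with other moves. The 64 controls and 2441 probe sets with _x in the name were left out, and 22748 reached 50 on at least 1 array. Log2 of the deposited intensity was fitted with limma 3.58.1 in R 4.3.3 (lmFit, eBayes, Benjamini-Hochberg, no covariates), and the steps were tested on simulated data. Genes were named through the platform annotation (34945 probe sets with 1 gene, 932 with several, 9160 with none). Precision is limited by how few arrays there are. The members, lists and tests were chosen with earlier results of these data known. Named genes were the members, up to 3 genes past the adjusted p in each direction and up to 2 with the highest mean in each list, a few fixed transporters and partners, and the 3 most alike genes of each member; the marker genes and *Nova1* lie outside that rule and were named after their values were seen. The 15 alternative settings changed filters, scaling, offset or array set, and 1 more was chosen after seeing the data.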

Additional observations from a re-analysis of the deposited data

Results flagged for a closer look

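Among the 9 member probe sets, 2 had a luciferase array far from the other 3 by Dixon's test, which marks about 1 group in 20 by chance. *Glra3* 1457747_at stood at 134.08 on luciferase replicate 3, against 89.55 to 95.66 on the other luciferase arrays, a gap of 0.863 of the whole range. *Gphn* 1426462_at stood at 1212.5 on luciferase replicate 4, against 1313.36 to 1331.84 on the others, a gap of 0.845 of the range. Groups of 3, such as the blank arrays, were not screened.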

How the results depend on the processing

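The value of *Glra3* 1457747_at, which chose the genes, lay between 1.496 and 2.07 over 16 alternatives. *Glrb* ranged from -0.30 to -0.037, *Gphn* 1426462_at from -0.34 to -0.16, *Glra2* from 0.094 to 0.26 and *Gphn* 1430038_at from 0.027 to 0.18. *Gphn* 1426463_at turned its sign without blank replicate 6 (-0.019) and when arrays were centred on their tested median (-0.033), a setting added after seeing the data. Of the listed genes, 22 passed the adjusted p, 39 with limma's array weights, 31 when any tested probe set of a gene could pass, and between 13 and 25 when 1 replicate was left out. Higher calls made up 69.15% of called probe sets, 58.4% with quantile normalization, 78.8% with arrays centred on their median over all probe sets and 43.8% with the tested median. No paired analysis was possible because the groups share no replicate numbers. The 4 and 3 arrays set the width of the intervals, and levels under 50 set a limit for *Glra1* and for *Glra3* in blank neurons.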
